A study of Marchantia polymorpha and Arabidopsis thaliana and Oryza sativa Japonica Group with 116 samples.

Results

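The genes described here are 10 Aux/IAA repressor genes of Arabidopsis thaliana, chosen by locus identifier: IAA1 (AT4G14560), IAA2 (AT3G23030), IAA3 (AT1G04240), IAA5 (AT1G15580), IAA6 (AT1G52830), IAA7 (AT3G23050), IAA14 (AT4G14550), IAA17 (AT1G04250), IAA19 (AT3G15540) and IAA29 (AT4G32280). They are 10 of 29 Aux/IAA genes looked up and 10 of 32853 genes in the Arabidopsis RNA-seq table. RNA was taken from whole 7-day-old seedlings grown in liquid medium under continuous light. Seedlings of 4 genotypes were harvested at 0 h, after 2 h or 24 h in 100 mM NaCl, or after 4 h in tunicamycin at 0.3 ug per mL, a drug that blocks protein N-glycosylation and causes stress in the endoplasmic reticulum. The genotypes were the wild type Col-0, gpa1-3 (mutated in GPA1, the canonical G-protein alpha subunit), agb1-2 (mutated in AGB1, the beta subunit) and xlg1,2,3 (mutated in the 3 extra-large alpha subunits XLG1, XLG2 and XLG3). Each of the 12 groups at 0 h or in NaCl had 3 libraries and each of the 4 tunicamycin groups had 2, which makes 44 libraries.

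Aux/IAA proteins are short-lived repressors of auxin-responsive transcription. They bind auxin response factors (ARFs) on promoters and recruit TOPLESS co-repressors. Auxin joins an Aux/IAA to a TIR1/AFB F-box protein through the degron in its domain II, and the repressor is then ubiquitinated and degraded. Many Aux/IAA genes are themselves switched on by the ARFs they repress, so that their transcripts are widely used as readouts of auxin signalling.

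Positions follow the TAIR10.1 assembly. IAA1 lies on chromosome 4 at 8360996 to 8362033 (plus strand), and IAA14 on the same chromosome at 8347822 to 8350263 (minus strand). IAA2 lies on chromosome 3 at 8180646 to 8182095 (minus strand), and IAA7 at 8194606 to 8197161 (plus strand). IAA3 lies on chromosome 1 at 1128149 to 1129689 (minus strand), and IAA17 at 1136078 to 1138663 (plus strand). Each of these 3 pairs is transcribed away from a shared interval with 1 annotated gene between, of 10732, 12510 and 6388 bases. IAA5 lies on chromosome 1 at 5365512 to 5366497 (minus strand), IAA6 on chromosome 1 at 19672476 to 19673652 (minus strand), IAA19 on chromosome 3 at 5264001 to 5265695 (plus strand) and IAA29 on chromosome 4 at 15583332 to 15584903 (plus strand). IAA3 overlaps AT1G04230 on the other strand by 640 bases, and IAA5 overlaps AT1G15570 by 48 bases. Whether the counting used strand is not stated, so reads in those overlaps cannot be assigned with certainty.

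The degron is what makes these proteins auxin-sensitive, so its coding DNA is shown for every one of the genes. All 10 genes had the 4 codons for glycine, tryptophan, proline and proline that form the degron core, as did 13 of the other 19 Aux/IAA genes. Capitals mark those 4 codons, and the lower-case bases are the neighbouring codons, read 5′ to 3′ along the gene from TAIR10.1. Genes are ordered by the family's known branches. Among the 10 genes there were 7 distinct versions of the 12-base core.

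IAA1 (chr4:8361433-8361471, plus strand): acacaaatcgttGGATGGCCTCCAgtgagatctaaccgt
IAA2 (chr3:8181381-8181419, minus strand): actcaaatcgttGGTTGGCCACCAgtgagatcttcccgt
IAA3 (chr1:1129013-1129051, minus strand): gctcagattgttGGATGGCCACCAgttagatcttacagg
IAA5 (chr1:5366269-5366307, minus strand): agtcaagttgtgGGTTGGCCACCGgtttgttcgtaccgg
IAA6 (chr1:19673317-19673355, minus strand): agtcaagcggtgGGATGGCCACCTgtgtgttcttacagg
IAA19 (chr3:5264304-5264342, plus strand): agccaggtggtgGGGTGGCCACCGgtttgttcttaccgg
IAA7 (chr3:8195565-8195603, plus strand): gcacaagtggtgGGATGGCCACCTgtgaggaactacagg
IAA14 (chr4:8349472-8349510, minus strand): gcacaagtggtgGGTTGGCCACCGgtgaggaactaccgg
IAA17 (chr1:1136935-1136973, plus strand): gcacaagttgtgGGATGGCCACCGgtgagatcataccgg
IAA29 (chr4:15583939-15583977, plus strand): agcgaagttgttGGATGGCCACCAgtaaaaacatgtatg

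In IAA5, IAA6 and IAA19 the core lay in coding exon 1 of the longest coding model, and in the other 7 genes in coding exon 2.

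The 250 bases before the annotated gene start were searched on both strands for the auxin response elements TGTCTC and TGTCGG, which ARFs bind, and for the G-box CACGTG, which basic helix-loop-helix factors such as the PIFs bind. TGTCTC was found in IAA1, IAA5, IAA6 and IAA19, that is in 4 of 10 windows against 10.9% of 27443 windows of protein-coding genes. TGTCGG was found in IAA1 and IAA5 (4.16% of all windows), and CACGTG in IAA7 and IAA19 (6.49% of all windows). No match overlapped another. The windows of IAA2, IAA3, IAA14, IAA17 and IAA29 held none of the 3. Windows are shown for IAA19 and IAA1, which hold matches (capitals), and for IAA2 and IAA14, which hold none and whose transcripts moved in opposite directions under salt.

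IAA19 (chr3:5263751-5264000, plus strand): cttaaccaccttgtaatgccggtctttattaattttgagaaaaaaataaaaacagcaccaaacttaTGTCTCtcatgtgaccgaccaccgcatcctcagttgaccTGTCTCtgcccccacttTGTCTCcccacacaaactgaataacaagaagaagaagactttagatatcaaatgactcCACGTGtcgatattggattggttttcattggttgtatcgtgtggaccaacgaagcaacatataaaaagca
IAA1 (chr4:8360746-8360995, plus strand): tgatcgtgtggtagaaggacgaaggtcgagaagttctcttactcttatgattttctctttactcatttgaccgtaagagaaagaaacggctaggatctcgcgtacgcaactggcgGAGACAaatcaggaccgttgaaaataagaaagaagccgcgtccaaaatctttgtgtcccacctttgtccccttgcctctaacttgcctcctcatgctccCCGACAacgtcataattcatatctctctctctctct
IAA2 (chr3:8182096-8182345, minus strand): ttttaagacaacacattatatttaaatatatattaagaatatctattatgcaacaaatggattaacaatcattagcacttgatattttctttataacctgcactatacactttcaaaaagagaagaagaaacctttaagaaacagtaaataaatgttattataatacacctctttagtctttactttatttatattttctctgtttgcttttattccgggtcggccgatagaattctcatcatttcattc
IAA14 (chr4:8350264-8350513, minus strand): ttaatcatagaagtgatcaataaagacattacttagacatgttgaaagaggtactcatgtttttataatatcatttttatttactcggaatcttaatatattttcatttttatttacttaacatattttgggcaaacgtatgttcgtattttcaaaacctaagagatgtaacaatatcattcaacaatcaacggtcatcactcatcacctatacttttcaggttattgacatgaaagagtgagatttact

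Library totals ranged from 14135237 to 39011130 counts with a median of 29700104, and the libraries numbered 3 were the shallowest, none above 16646410 counts. Levels are given as CPM, which are counts scaled to a common library size, here after TMM scaling. A gene is called changed where edgeR's quasi-likelihood F-test gave a Benjamini-Hochberg adjusted p under 0.05 over the 20858 genes tested. The replicates are called biological, with no statement of what was grown separately. The p-values therefore set each difference against the spread between these libraries within groups, estimated over all 16 groups. No mock-treated libraries at 2, 4 or 24 h were analysed here, so a change under treatment cannot be told apart from one due to time or handling. In RNA from whole seedlings, fewer cells of a type cannot be told apart from less RNA per cell. GPA1 mRNA at 0 h had a mean of 118.5 CPM in Col-0 and 16.3 in gpa1-3, and in xlg1,2,3 XLG2 and XLG3 stood at 16.8 and 12.3 CPM against 95.2 and 55.5, while XLG1 stood at 114 against 68.5. AGB1 mRNA at 0 h was 126 to 159 CPM in the libraries labelled agb1-2 and 124 to 136 CPM in Col-0. It was 56.1 to 58.8 against 105 to 129 CPM at 2 h of NaCl and 68.5 to 76.4 against 106 to 128 CPM at 24 h, lower without overlap, and 103 to 122 against 71.5 to 72.7 CPM under tunicamycin. The transcript level thus gave no uniform check of that label. Summed CPM of 12 root markers ranged from 22.7 to 61.9 and was 23.3 to 25.8 in Col-0 at 0 h, 48.4 to 57.8 at 2 h and 40.3 to 47.4 at 24 h of NaCl, and 53.3 to 61.9 under tunicamycin. Much of this sum in Col-0 was SCR, with means of 15.8 CPM at 0 h and 47.8 CPM under tunicamycin. In NaCl SCR stood at 38.2 CPM at 2 h and 30.4 CPM at 24 h. CASP1 stood at 4.21 CPM at 0 h, 10.2 and 9.86 CPM at 2 h and 24 h of NaCl and 4.97 CPM under tunicamycin. A higher sum therefore need not mean that all 12 markers were higher. The part of the root marker shift in the results below was not tested. Sums were 8871 to 19695 for 7 leaf and cotyledon photosynthesis genes and 1.20 to 3.29 for 3 shoot meristem genes. Seed storage transcripts (5 genes) summed to 101 to 205 CPM in gpa1-3 at 0 h against 0.247 to 0.525 in Col-0 at 0 h, and reached 552 in 1 gpa1-3 library at 24 h of NaCl. The highest library stood at 99.9 CPM in xlg1,2,3 at 0 h and 142 at 2 h, and at 159 in gpa1-3 under tunicamycin. In the libraries labelled agb1-2 the highest stood at 14.4 at 0 h, 36.1 at 2 h and 73.6 at 24 h. In Col-0 at 24 h it stood at 89.2. The lowest library was under 1 CPM in each of these groups except gpa1-3 at 0 h, where it stood at 101 CPM. Their part in the differences between groups was not tested.

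IAA2 dominated the 10 genes in untreated Col-0. Per kb of exon it stood at 172 ± 39.0 CPM per kb (SD, n = 3), the highest of the 29 family genes. IAA7 was the next of the 10 at 54.2 ± 1.26 CPM per kb. Then came IAA3 (4.33 ± 1.31 CPM per kb), IAA17 (3.08 ± 0.464 CPM per kb), IAA19 (2.81 ± 0.132 CPM per kb), IAA1 (1.01 ± 0.375 CPM per kb), IAA14 (0.890 ± 0.0836 CPM per kb) and IAA29 (0.467 ± 0.194 CPM per kb). Neighbours from IAA3 to IAA19, and IAA1 and IAA14, differed by less than their spread. IAA5 was close to the limit of detection, and IAA6 had no count in any library. Together the 10 genes made up 40.1% of the per-kb total of the family (at least 35.6% in each library), of which IAA2 alone gave 28.8%. The family total was 593 ± 38.9 CPM per kb at 0 h and 340 ± 25.8 CPM per kb at 2 h of NaCl (SD, n = 3), with no overlap between libraries and no test of the sum. At 2 h the share of the 10 genes was 30.2% and that of IAA2 was 13.4%, and by 24 h the share of the 10 genes was 22.5%.

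**Figure D1:**
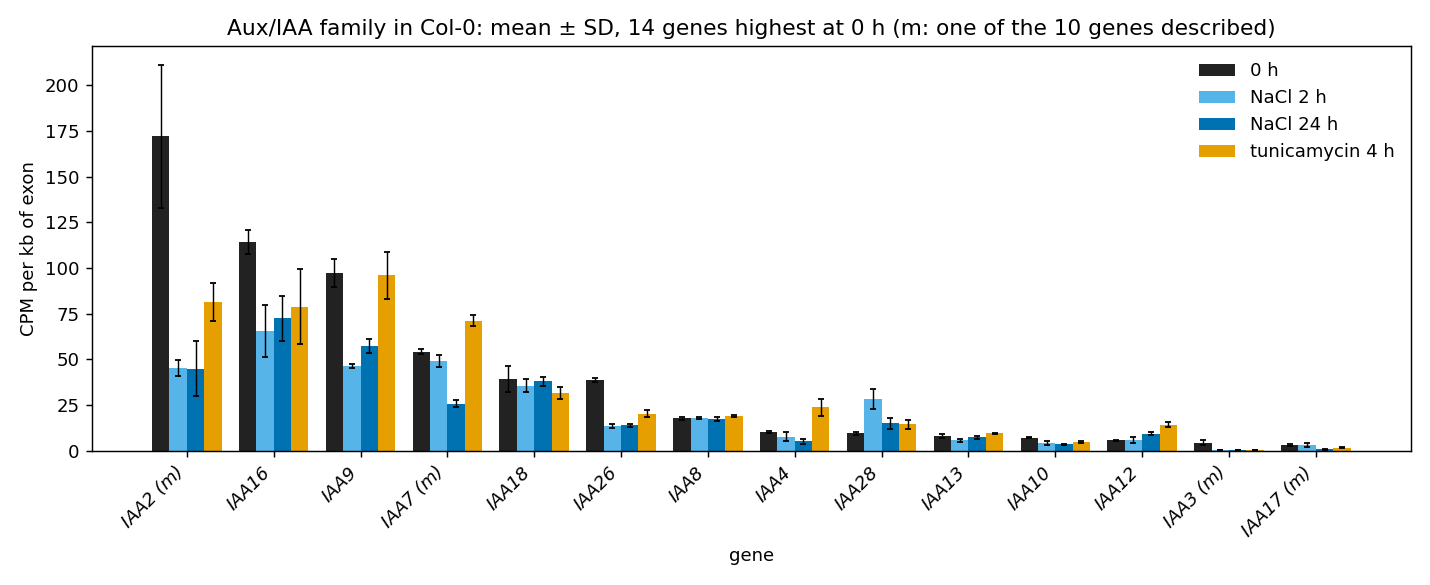
Per-kb transcript level of the 14 Aux/IAA genes highest in untreated Col-0, in CPM per kb of exon, as group mean with SD (3 libraries, 2 for tunicamycin), coloured by treatment. IAA2 is the tallest bar at 0 h (172) and stands at 45.2 after 2 h of NaCl, and IAA28, outside the 10 genes, is the one that is clearly taller at 2 h.

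After 2 h of NaCl in Col-0, transcripts of IAA2, IAA3, IAA19 and IAA29 fell and those of IAA14 rose, whereas IAA1, IAA7 and IAA17 did not pass the test. Of the 8 genes that passed the low-count filter, 4 were called lower and 1 higher. Among all genes tested, 27.9% were called lower and 28.4% higher. The median log2 change of the 8 genes was -1.09, against -0.01 over all genes tested. IAA5 and IAA6 did not pass the filter and were not tested.

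IAA2, an early auxin-induced repressor, was at 236, 180 and 285 CPM in the 3 Col-0 libraries at 0 h and at 59.7, 56.5 and 67.8 CPM after 2 h. Every treated library was below every untreated one, and the gene fell 3.81-fold (log2 -1.93 ± 0.19 SE, edgeR adjusted p = 1.6e-10). IAA3, also called SHY2, which restrains root meristem growth, went from 4.92, 4.75 and 7.91 CPM to 0.737, 0.515 and 0.316 CPM. This was the steepest fitted fall at 2 h among the 8 genes, 10.2-fold (log2 -3.34 ± 0.27 SE, edgeR adjusted p = 1e-12), again without overlap. The overlapping gene AT1G04230 stood at 14.8 ± 1.31 CPM at 0 h and at 9.95 ± 1.51 CPM at 2 h (SD, n = 3). IAA19, known as MSG2 and needed for hypocotyl bending towards light, was at 2.70, 2.84 and 2.97 CPM at 0 h and at 0.355, 1.26 and 0.884 CPM at 2 h. It fell 3.47-fold (log2 -1.79 ± 0.35 SE, edgeR adjusted p = 5.3e-05). IAA29, a target of PIF factors in shade and warmth, had 46 counts over the 3 untreated libraries (0.562, 0.370 and 0.865 CPM) and 9 over the treated ones (0.136, 0.0966 and 0.0632 CPM). It fell 5.12-fold (log2 -2.36 ± 0.69 SE, edgeR adjusted p = 0.004).

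IAA14, known as SLR and a repressor of lateral root initiation, moved the other way. It was at 1.55, 1.64 and 1.85 CPM at 0 h and at 4.91, 4.44 and 4.29 CPM at 2 h, a 2.75-fold rise without overlap (log2 1.46 ± 0.17 SE, edgeR adjusted p = 6.4e-09). IAA7 and IAA17, its closest relatives among the 10 genes and known from the auxin-resistant mutants axr2 and axr3, had log2 differences of -0.14 ± 0.08 and 0.16 ± 0.17 (SE). Without Col-0 NaCl 2 h replicate 3, IAA17 was called higher (log2 0.37, edgeR adjusted p = 0.04). IAA1, next to IAA14 on chromosome 4, had a log2 difference of -0.38 ± 0.35 (edgeR adjusted p = 0.36).

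**Figure D2:**
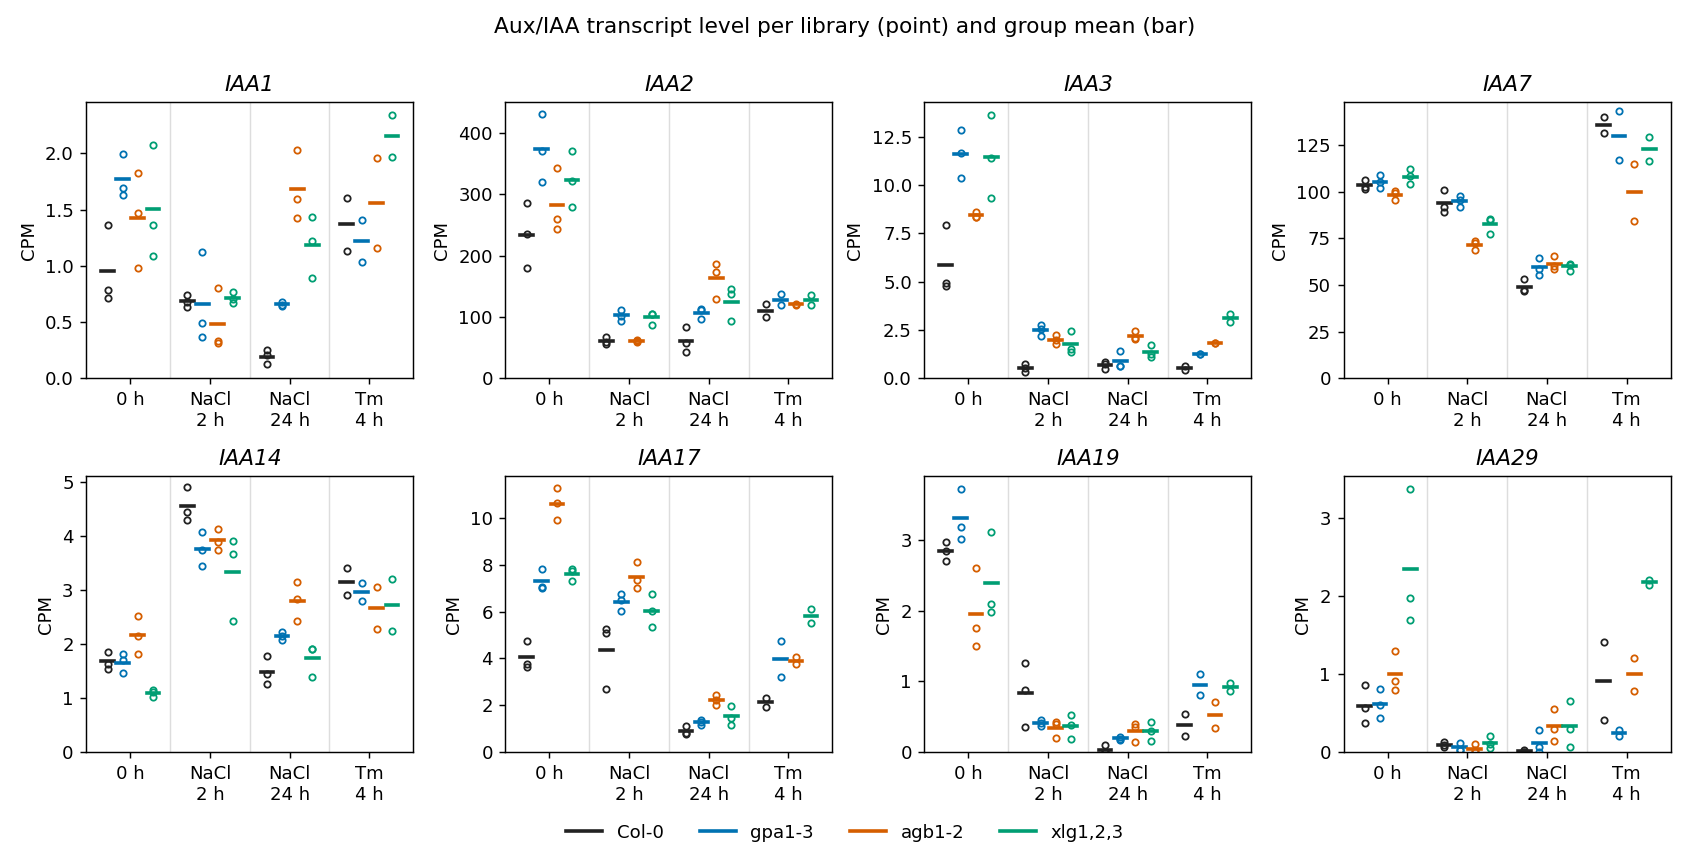
Level of the 8 tested genes in each of 44 libraries (open points, CPM after TMM scaling, linear axes starting at 0 and scaled per gene) by treatment and genotype, with bars at the group means. IAA2, IAA3 and IAA19 have lower means in every treated group than at 0 h of the same genotype. IAA2 at 24 h of NaCl stands at 129 to 186 in the libraries labelled agb1-2 and at 42.8 to 83.1 in Col-0. IAA14 peaks at 2 h of NaCl, and IAA1 at 24 h is lowest in Col-0 (0.125 to 0.249) and highest in the libraries labelled agb1-2 (1.43 to 2.03).

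The same 5 calls were made at 2 h in each mutant against its own 0 h libraries. In gpa1-3, 5 of 8 genes were called lower and 1 higher (27.0% and 26.5% of all genes). The libraries labelled agb1-2 had 7 called lower and 1 higher (27.6% and 26.7%). For xlg1,2,3 the counts were 6 lower and 1 higher (27.3% and 27.0%). IAA2 went to 102, 94.0 and 111 CPM in gpa1-3 from 431, 319 and 370 CPM. In the libraries labelled agb1-2 it went to 61.0, 58.7 and 62.1 CPM from 343, 260 and 244 CPM, and in xlg1,2,3 to 87.2, 105 and 105 CPM from 370, 279 and 321 CPM. Its log2 changes were -1.87, -2.22 and -1.71 in that order, with no overlap in any genotype. IAA14 rose by 1.20, 0.83 and 1.61 on the log2 scale, again in that order. IAA1 was called lower in all 3 mutants (log2 -1.55, -1.50 and -1.11). The mutants started at means of 1.42 to 1.77 CPM for IAA1 where Col-0 started at 0.952, and all 4 genotypes had means of 0.482 to 0.715 CPM at 2 h. IAA7 was called lower in the libraries labelled agb1-2 and in xlg1,2,3 (log2 -0.46 and -0.39), and IAA17 in the libraries labelled agb1-2 (log2 -0.50). The IAA1 call in xlg1,2,3 was lost without 0 h replicate 1 (edgeR adjusted p = 0.064), and without NaCl 2 h replicate 2 IAA17 was called lower there (0.047).

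After 24 h of NaCl the fall extended to IAA1, IAA7 and IAA17 in Col-0, and IAA14 was back near its starting level. In Col-0, 7 of 8 genes were called lower and none higher (28.8% and 29.0% of all genes), with a median log2 change of -2.12 against -0.01 over all genes. IAA17 was at 3.77, 3.64 and 4.76 CPM at 0 h and at 1.13, 0.783 and 0.815 CPM at 24 h, a 4.32-fold fall (log2 -2.11 ± 0.20 SE, edgeR adjusted p = 1.4e-10). IAA7 went from 102, 106 and 102 CPM to 47.4, 46.6 and 53.1 CPM, a 2.11-fold fall (log2 -1.08 ± 0.09 SE, edgeR adjusted p = 1.3e-12). Neither gene's groups overlapped. IAA1 went from 0.787, 0.710 and 1.36 CPM to 0.206, 0.249 and 0.125 CPM, a 4.37-fold fall (edgeR adjusted p = 8.5e-05). IAA2 (42.8, 83.1 and 57.0 CPM) and IAA3 (0.722, 0.818 and 0.501 CPM) stayed low. IAA14 was at 1.44, 1.78 and 1.25 CPM, overlapping its 0 h libraries. Leaf and cotyledon markers summed to 14229 to 17118 CPM in Col-0 at 24 h against 11264 to 12311 CPM at 0 h, without overlap, and their part was not tested.

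IAA19 and IAA29 all but disappeared in Col-0 at 24 h. IAA19 had 236 counts over the 3 libraries at 0 h and 3 at 24 h, all in replicate 2, a ratio of 68.4 after scaling for depth (exact 95% counting interval 23.1 to 334). IAA29 had 46 counts at 0 h and 1 at 24 h, a ratio of 40.0 (interval 6.83 to 1613). These intervals cover counting error only. Both genes were called lower by edgeR (adjusted p = 1.3e-10 and 0.00011).

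In gpa1-3, the same 7 genes were called lower at 24 h (27.5% of all genes were lower and 29.5% higher). The libraries labelled agb1-2 had 6 called lower and none higher (29.4% and 30.8%), since IAA1, at 1.43, 2.03 and 1.60 CPM, overlapped its untreated libraries at 1.83, 1.47 and 0.978 CPM. For xlg1,2,3 the counts were 6 lower and 1, IAA14, higher (29.8% and 30.7%). IAA17 had log2 changes between -2.11 and -2.47 in the 4 genotypes. The IAA29 call was lost in gpa1-3 without NaCl 24 h replicate 2 (edgeR adjusted p = 0.073). In the libraries labelled agb1-2 it was lost without any 1 of 3 libraries (0.064 to 0.082), and there IAA14 was called higher without 0 h replicate 1 or NaCl 24 h replicate 2 (0.039 and 0.044). IAA2 in the libraries labelled agb1-2 was at 129, 186 and 174 CPM at 24 h, a log2 change of -0.79 ± 0.18 from 0 h, against -1.94 ± 0.19 in Col-0.

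**Figure D3:**
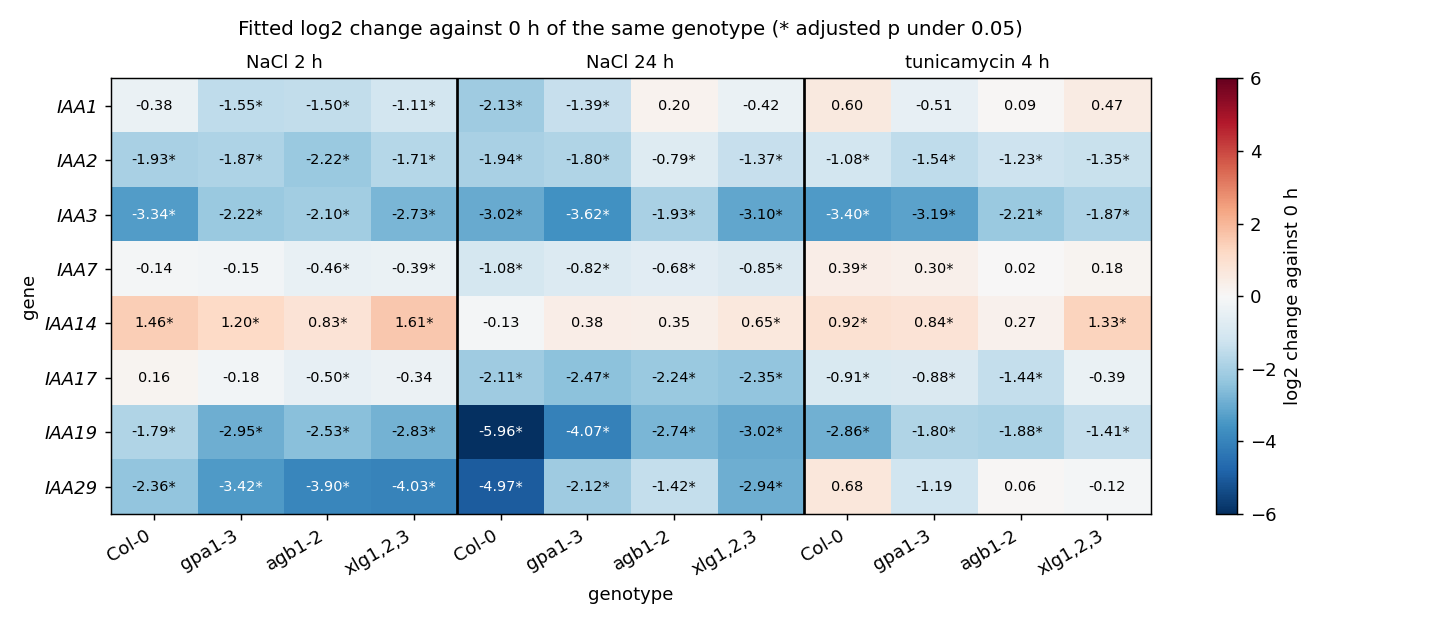
Fitted log2 change of the 8 tested genes against the 0 h libraries of the same genotype, coloured from blue (lower) to red (higher), with an asterisk where the edgeR adjusted p was under 0.05. IAA2, IAA3 and IAA19 are blue with an asterisk in all 12 columns, IAA14 is red at 2 h in all 4 genotypes, and the darkest cells, IAA19 and IAA29 in Col-0 at 24 h, rest on 3 and 1 counts and are not bounds.

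Directly between 2 h and 24 h of NaCl, IAA7, IAA14 and IAA17 fell in each genotype. In Col-0, 5 of 8 genes were called, all lower at 24 h (50.8% of all genes were called in either direction). In gpa1-3, 4 were called, all lower (49.6%), and in xlg1,2,3, 3 were called, all lower (56.6%). In xlg1,2,3, 5 genes were called without the first 24 h library, the added ones being IAA1 and IAA2, both higher. The libraries labelled agb1-2 had 3 genes called lower and 3 higher (53.5%). There IAA2 rose 2.69-fold from 61.0, 58.7 and 62.1 CPM (log2 1.43 ± 0.19 SE, edgeR adjusted p = 1.1e-07). IAA1 rose 3.24-fold from 0.804, 0.312 and 0.329 CPM (log2 1.70 ± 0.34 SE, edgeR adjusted p = 9.2e-05). IAA29 rose from 5 counts to 25 (edgeR adjusted p = 0.014), and this call was lost without the second 2 h or the second 24 h library (adjusted p = 0.054 and 0.12). The IAA7 call there was lost without any 1 of 4 libraries (0.069 to 0.1), and that of IAA14 without the second 24 h library (0.083).

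Tunicamycin for 4 h shared the fall of IAA2, IAA3 and IAA19 in each genotype. In Col-0 the calls of IAA7, IAA17 and IAA29 differed from those at 2 h of NaCl, and IAA7 was not called in the libraries labelled agb1-2 or in xlg1,2,3. The comparison with salt is by eye, because tunicamycin was not tested directly against NaCl. Both sets of changes also share the 0 h libraries. In Col-0 under tunicamycin, root markers summed to 53.3 to 61.9 CPM against 23.3 to 25.8 at 0 h. Of this sum SCR gave a mean of 47.8 against 15.8 CPM, and CASP1 and GL2 were not called. Leaf and cotyledon markers summed to 13507 to 16585 CPM against 11264 to 12311. Neither sum overlapped its 0 h libraries. Of the leaf and cotyledon list, LHCB2.1 (mean 475 against 321 CPM) and PSBO2 (957 against 583 CPM) were called higher. LHCB1.1 (1157 against 1627 CPM) was called lower. The part of these markers was not tested. In Col-0, 4 of 8 genes were called lower and 2 higher (27.6% and 28.2% of all genes). IAA3 was at 0.658 and 0.417 CPM, a 10.6-fold fall from 0 h (log2 -3.40 ± 0.30 SE, edgeR adjusted p = 2.4e-11). IAA2 was at 100 and 120 CPM, a 2.12-fold fall. IAA19 was at 0.538 and 0.225 CPM, a 7.27-fold fall. IAA17 was called lower (log2 -0.91), and IAA7 (140 and 131 CPM) and IAA14 (2.90 and 3.401 CPM) were called higher (log2 0.39 and 0.92). IAA29, at 0.419 and 1.41 CPM, and IAA1 did not pass the test and overlapped their 0 h libraries, though IAA1 was called higher without Col-0 0 h replicate 3 (log2 0.86, edgeR adjusted p = 0.049). In gpa1-3, the same 4 genes were called lower and the same 2 higher (24.1% and 25.4%), IAA7 losing its call without the first tunicamycin library (edgeR adjusted p = 0.3). In the libraries labelled agb1-2, 4 were called lower and none higher (21.1% and 22.9%), and in xlg1,2,3, 3 were called lower and 1 higher (25.4% and 26.1%).

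The mutants were then set against Col-0 within each treatment. These comparisons share the Col-0 libraries of that treatment and are not independent of each other. Before treatment, IAA3 and IAA17 were higher than in Col-0 in all 3 mutants. IAA17 was at 6.99, 7.07 and 7.80 CPM in gpa1-3, at 11.3, 10.6 and 9.91 CPM in the libraries labelled agb1-2 and at 7.80, 7.73 and 7.29 CPM in xlg1,2,3, against 3.77, 3.64 and 4.76 CPM in Col-0. No mutant library overlapped Col-0, and the differences were 1.81-fold, 2.65-fold and 1.90-fold (edgeR adjusted p = 0.00035, 5.4e-08 and 9e-05). IAA3 was at 10.4, 11.6 and 12.9 CPM in gpa1-3, at 8.60, 8.36 and 8.34 CPM in the libraries labelled agb1-2 and at 9.35, 11.4 and 13.6 CPM in xlg1,2,3. All 9 values were above the highest Col-0 value of 7.91 CPM, and the fitted differences were 2.01-fold, 1.47-fold and 1.98-fold (edgeR adjusted p = 0.00056, 0.036 and 0.00057). In the libraries labelled agb1-2 the IAA3 call was lost without any 1 of 5 of the 6 libraries compared (adjusted p from 0.063 to 0.18) and held without Col-0 replicate 3.

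In gpa1-3 at 0 h, 4 of 8 genes were called higher and none lower (6.1% and 7.6% of all genes), IAA1 and IAA2 being the others. IAA2 was at 431, 319 and 370 CPM against 236, 180 and 285 CPM, a 1.60-fold difference (edgeR adjusted p = 0.01). Without gpa1-3 replicate 1 or without Col-0 replicate 2, both IAA1 and IAA2 lost their call and 2 genes were left. The IAA1 call held without Col-0 replicate 3 and was lost without any 1 of the other 5 libraries (edgeR adjusted p from 0.07 to 0.2). In the libraries labelled agb1-2, 2 genes were called higher and none lower (13.8% and 17.7%), a count that was 3 without Col-0 replicate 3 (IAA1 added) and 1 without replicate 1 or 2 of either genotype. For xlg1,2,3 the counts were 3 higher and 1 lower (7.79% and 8.5%). IAA29 in xlg1,2,3 was at 1.70, 3.37 and 1.98 CPM against 0.562, 0.370 and 0.865 CPM, a 4.18-fold difference without overlap (log2 2.06 ± 0.46 SE, edgeR adjusted p = 0.0013). IAA14 was lower there, at 1.12, 1.02 and 1.15 CPM against 1.55, 1.64 and 1.85 CPM (1.52-fold, edgeR adjusted p = 0.027), and that call was lost without any 1 of 4 libraries (adjusted p from 0.065 to 0.1). Leaf and cotyledon markers summed to 14671 to 16616 CPM in gpa1-3 and 14777 to 15918 CPM in the libraries labelled agb1-2 at 0 h, against 11264 to 12311 CPM in Col-0 and 11120 to 11712 CPM in xlg1,2,3. Their part in these differences was not tested.

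After 2 h of NaCl, IAA3 stood furthest from Col-0. It was at 2.18, 2.76 and 2.56 CPM in gpa1-3, at 1.77, 1.97 and 2.23 CPM in the libraries labelled agb1-2 and at 1.53, 1.38 and 2.42 CPM in xlg1,2,3, against 0.737, 0.515 and 0.316 CPM in Col-0. The differences of 4.399-fold, 3.47-fold and 3.03-fold were without overlap (edgeR adjusted p = 5.9e-07, 7.4e-06 and 0.00014). In gpa1-3, 3 genes were called higher, IAA2, IAA3 and IAA17, and none lower (9.21% and 12.8% of all genes). The IAA17 call was lost without gpa1-3 replicate 2 or 3 or Col-0 replicate 3 (edgeR adjusted p from 0.052 to 0.15). The libraries labelled agb1-2 had 2 called higher, IAA3 and IAA17, and 2 lower, IAA7 and IAA19 (15.4% and 18.7%). The IAA19 libraries overlapped those of Col-0, and its call was lost without Col-0 replicate 2 or 3 or agb1-2 replicate 2 (edgeR adjusted p from 0.061 to 0.35). For xlg1,2,3 there were 2 called higher, IAA2 and IAA3, and none lower (6.79% and 7.21%). That count was 4 without Col-0 NaCl 2 h replicate 1 and 1 without replicate 2. Root markers summed to 25.4 to 34.2 CPM in gpa1-3, 36.0 to 36.8 CPM in the libraries labelled agb1-2 and 31.0 to 45.4 CPM in xlg1,2,3, all below the 48.4 to 57.8 CPM of Col-0 at 2 h, and their part was not tested.

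At 24 h of NaCl the libraries labelled agb1-2 and those of xlg1,2,3 stood above Col-0 across the group. All 8 genes were called higher in the libraries labelled agb1-2 and none lower, where 16.2% of all genes were higher and 19.2% lower. The median log2 difference of the 8 genes was 1.53 against -0.01 over all genes. In xlg1,2,3, 7 were called higher, all but IAA14, and none lower (8.97% and 10.5%), with a median of 0.97. In gpa1-3, 3 were called, IAA1, IAA2 and IAA7, all higher, where 7.93% of all genes were called in either direction. IAA1 was at 1.43, 2.03 and 1.60 CPM in the libraries labelled agb1-2, at 0.890, 1.22 and 1.44 CPM in xlg1,2,3 and at 0.681, 0.655 and 0.645 CPM in gpa1-3, against 0.206, 0.249 and 0.125 CPM in Col-0. No mutant library overlapped Col-0, and the differences were 8.16-fold, 5.59-fold and 3.21-fold (edgeR adjusted p = 5.1e-07, 6.3e-05 and 0.02). IAA2 was at 129, 186 and 174 CPM, at 93.3, 145 and 137 CPM and at 113, 112 and 96.1 CPM in the same order, against 42.8, 83.1 and 57.0 CPM. These were differences of 2.67-fold, 2.05-fold and 1.76-fold without overlap (edgeR adjusted p = 4.2e-07, 0.00014 and 0.0046).

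IAA3 at 24 h was 3.12-fold higher than in Col-0 in the libraries labelled agb1-2, at 2.05, 2.44 and 2.103 CPM (edgeR adjusted p = 2.5e-05). IAA17 was 2.42-fold higher there, at 2.45, 2.03 and 2.25 CPM (edgeR adjusted p = 2.3e-05), and IAA14 1.85-fold higher, at 3.15, 2.44 and 2.83 CPM (edgeR adjusted p = 0.00022). IAA19 had 20 counts there, 22 in xlg1,2,3 and 3 in Col-0, ratios of 7.15 (exact 95% counting interval 2.12 to 37.6) and 7.16 (2.15 to 37.4). The IAA19 call in the libraries labelled agb1-2 was lost without Col-0 replicate 1 or agb1-2 replicate 2 (edgeR adjusted p = 0.07 and 0.068). In xlg1,2,3 it was lost without Col-0 replicate 1 or 3 or xlg1,2,3 replicate 2 (0.051 to 0.1). IAA29 had 25 counts, 22 counts and 1 count, ratios of 26.8 (4.39 to 1101) and 21.5 (3.47 to 887). The IAA29 call in xlg1,2,3 was lost without Col-0 replicate 2 or xlg1,2,3 replicate 3 (edgeR adjusted p = 0.063 and 0.079). Shoot meristem markers also summed higher there, to 2.39 to 3.29 CPM in the libraries labelled agb1-2 and 2.16 to 2.80 in xlg1,2,3 against 1.31 to 1.81 in Col-0 at 24 h, with 3 markers in the list, and their part was not tested. Root markers summed to 42.6 to 48.9, 43.2 to 48.9 and 40.3 to 47.4 CPM in that order. The count in xlg1,2,3 was 4 without any 1 of the 3 Col-0 libraries or without xlg1,2,3 replicate 3. The count in gpa1-3 was 0 without Col-0 replicate 1 and 1 without gpa1-3 replicate 1.

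**Figure D4:**
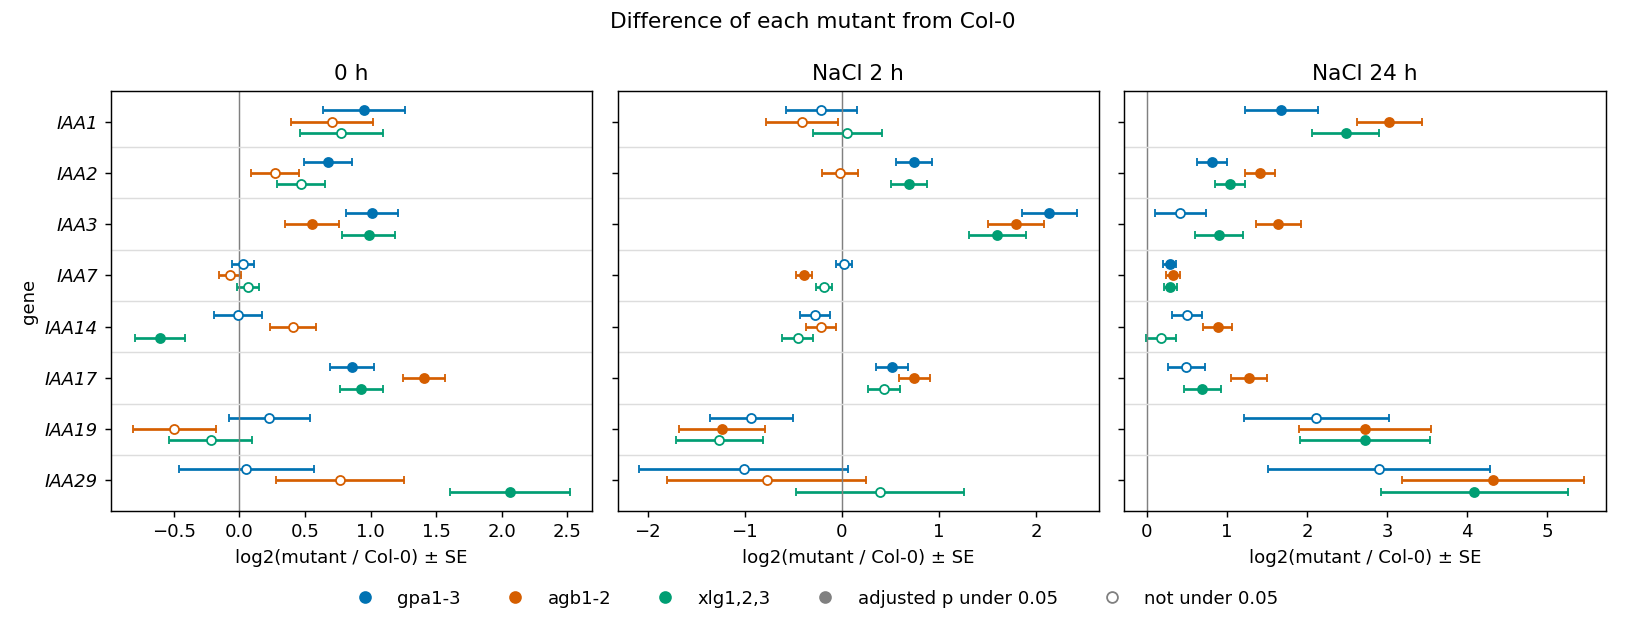
Fitted log2 difference of each mutant from Col-0 with its SE at 0 h, 2 h and 24 h of NaCl (separate axis ranges), filled points having an edgeR adjusted p under 0.05. At 24 h every point lies right of 0 and all 8 of agb1-2 are filled, while at 0 h and 2 h the points lie on both sides, and IAA19 and IAA29 at 24 h rest on 3 and 1 Col-0 counts.

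The difference between mutant and Col-0 responses was tested as an interaction. For 24 h of NaCl, 6 of 8 genes differed in the libraries labelled agb1-2, with less of a fall than in Col-0 or, for IAA1, no called fall (23.6% of all genes were called in either direction). The differences on the log2 scale were 2.32 ± 0.53 for IAA1, 1.14 ± 0.26 for IAA2, 1.09 ± 0.35 for IAA3 and 0.40 ± 0.12 for IAA7. Their edgeR adjusted p-values were 0.0017, 0.0017, 0.022 and 0.015. IAA19 (3.22 ± 0.89) and IAA29 (3.55 ± 1.32) were called too, on 3 and 1 Col-0 counts. The IAA29 call was lost without any 1 of 9 of the 12 libraries (adjusted p from 0.052 to 0.14). The IAA3 call was lost without Col-0 0 h replicate 3, Col-0 NaCl 24 h replicate 3 or agb1-2 NaCl 24 h replicate 2 (adjusted p = 0.075, 0.062 and 0.053). In xlg1,2,3, 2 genes differed at 24 h, IAA1 (1.71 ± 0.54) and IAA19 (2.94 ± 0.88), where 9.23% of all genes did. Neither call was stable: IAA1 was lost without any 1 of 9 of the 12 libraries (adjusted p from 0.052 to 0.099), and IAA19 without any 1 of 4 (0.057 to 0.12).

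At 2 h of NaCl the interaction was called for IAA3 alone, in the libraries labelled agb1-2 (log2 1.24 ± 0.35, edgeR adjusted p = 0.015), where 13.2% of all genes were called. It was lost without Col-0 NaCl 2 h replicate 2 or Col-0 0 h replicate 3 (adjusted p = 0.054 and 0.056). The median interaction over the 8 genes there was -0.64, and 5 of 8 had an unadjusted p under 0.05. DESeq2 called 3 genes there, IAA3 in the same direction and, in the opposite direction, IAA17 (log2 -0.71, DESeq2 adjusted p = 0.021) and IAA7 (log2 -0.34, DESeq2 adjusted p = 0.042). In gpa1-3 none of the 8 genes differed from Col-0 in the response to 2 h, 24 h or tunicamycin (4.79%, 5.69% and 15.9% of all genes did). IAA3 in gpa1-3 at 2 h came to 1.13 ± 0.35 with an edgeR adjusted p of 0.056. At an unadjusted p under 0.05 the gpa1-3 counts were 3, 1 and 2 of 8, and DESeq2 called 1, 0 and 0. In xlg1,2,3 none differed at 2 h by edgeR or DESeq2 (2.63% of all genes by edgeR), and 2 of 8 had an unadjusted p under 0.05. The tunicamycin response of IAA3 differed in the libraries labelled agb1-2 (1.20 ± 0.40, edgeR adjusted p = 0.046) and in xlg1,2,3 (1.53 ± 0.39, edgeR adjusted p = 0.013), where 11.4% and 5.71% of all genes differed. The first of these was lost without any 1 of 7 of the 10 libraries, and the second without xlg1,2,3 tunicamycin replicate 1 or Col-0 tunicamycin replicate 2 (adjusted p = 0.067 and 0.17).

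Under tunicamycin, IAA3 and IAA17 were above Col-0 in all 3 mutants. IAA3 was at 1.25 and 1.28 CPM in gpa1-3, at 1.82 and 1.83 CPM in the libraries labelled agb1-2 and at 3.31 and 2.92 CPM in xlg1,2,3, against 0.658 and 0.417 CPM in Col-0. The differences were 2.33-fold, 3.36-fold and 5.73-fold (edgeR adjusted p = 0.012, 0.00069 and 1.4e-06). IAA17 was at 3.21 and 4.73 CPM, at 3.75 and 4.08 CPM and at 6.11 and 5.49 CPM, against 1.94 and 2.31 CPM, differences of 1.85-fold, 1.84-fold and 2.73-fold (edgeR adjusted p = 0.0025, 0.0065 and 9.3e-06). Without Col-0 replicate 1 the IAA17 call was lost in the libraries labelled agb1-2 (adjusted p = 0.081). In gpa1-3, 2 genes were called higher and 1, IAA29, lower (9.69% and 10.2% of all genes), a count that was 0 without the second gpa1-3 library and 1 without the second Col-0 library. The libraries labelled agb1-2 had 2 called higher and 1, IAA7, lower (4.16% and 4.72%), a count that was 1 without the second agb1-2 library. For xlg1,2,3 the counts were 2 higher and none lower (5.54% and 7.62%). Root markers under tunicamycin summed to 43.5 to 44.4 CPM in gpa1-3, 50.0 to 53.4 CPM in the libraries labelled agb1-2 and 50.0 to 52.1 CPM in xlg1,2,3, against 53.3 to 61.9 CPM in Col-0. Leaf and cotyledon markers summed to 10664 to 11508, 12440 to 15635 and 10773 to 11277 CPM in that order, against 13507 to 16585 CPM in Col-0. Their part in these differences was not tested.

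IAA5 and IAA6, the closest relatives of IAA19, had few counts or none. IAA6, which acts in hypocotyl growth, was listed at 0 in all 44 libraries, as were 6014 of the 32853 genes in the table. The sources used here do not say whether the counting could assign reads to it, so its 0 may not be a measure of its transcript. A count of 0 allows up to 3 counts, which is 0.0750 to 0.218 CPM by library. IAA5 had 58 counts in 22 libraries. Of these, 29 were in xlg1,2,3 at 0 h (9, 16 and 4 counts), against 3 in Col-0 at 0 h, a ratio of 9.59 (exact 95% counting interval 2.97 to 49.2). IAA5 in xlg1,2,3 had no count after 2 h or 24 h of NaCl, which is at least 9.48-fold and at least 8.54-fold lower against a floor of 3 counts over the group.

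Over the 16 group means of log2(CPM + 1), IAA2, IAA3 and IAA19 followed each other most closely, with Pearson's r of 0.88 for IAA2 and IAA3, 0.86 for IAA3 and IAA19 and 0.83 for IAA2 and IAA19. IAA1 was most like IAA29 among the 8 genes (0.78). IAA14 ran against IAA2 (-0.62) and IAA3 (-0.54). Neighbouring genes were not always alike, with r of -0.19 for IAA1 and IAA14, 0.39 for IAA2 and IAA7 and 0.69 for IAA3 and IAA17. These are descriptions over group means that share genotypes and treatments. A set of 13074 tested genes reached 10 CPM in some group mean. With the genes described here left out of it, the gene most like each of the 8 was found. For IAA1 it was ACL5 (r = 0.90), which encodes a polyamine synthase of xylem cells, and for IAA17 GPAT8 (0.94), an enzyme of cutin synthesis. For IAA19 it was SYP132 (0.96), a membrane fusion protein, and for IAA3 AT1G72180 (0.95). For IAA2 it was AT1G14770 (0.94), for IAA7 AT3G07170 (0.94), for IAA14 AT4G13540 (0.93) and for IAA29 AT3G28160 (0.88).

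**Figure D5:**
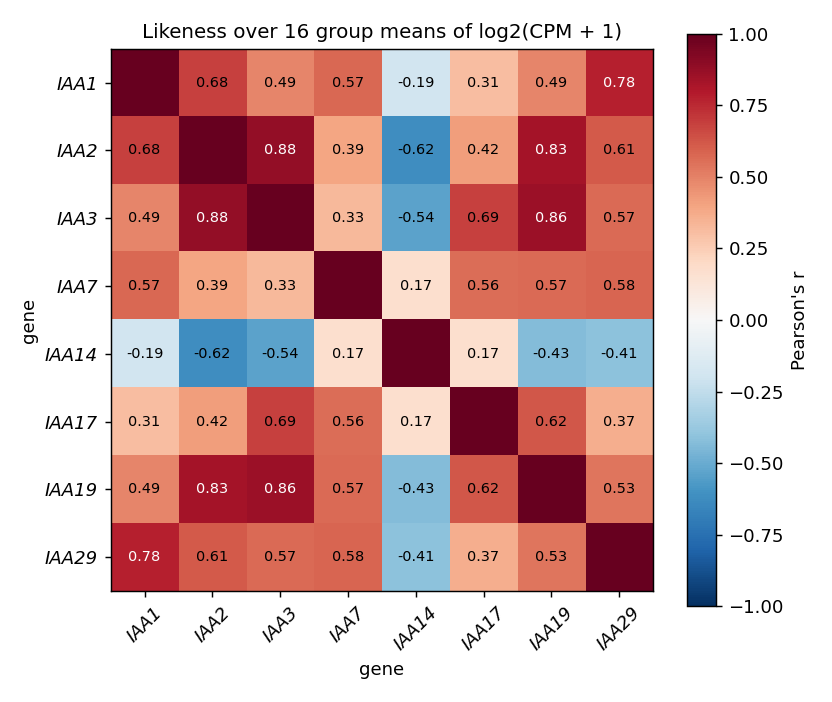
Pearson's r between the 8 tested genes over 16 group means of log2(CPM + 1), as a symmetric matrix coloured from blue (-1) to red (1). IAA2, IAA3 and IAA19 form the reddest block (0.83 to 0.88) and IAA14 is the row with blue cells.

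The rest of the pathway was described in Col-0 at 2 h of NaCl from fixed lists, with up to 3 members of smallest p named from each. Their counts stand against the 28.4% of all genes called higher and 27.9% called lower in that comparison. Of 15 other Aux/IAA genes tested, 6 were called lower and 2 higher, with a median log2 change of -0.37. IAA26 fell 2.86-fold and IAA9 2.095-fold, while IAA28, a repressor of lateral root initiation like IAA14, rose 2.99-fold from 13.2 ± 1.04 to 39.3 ± 7.68 CPM (SD, n = 3). Among the 6 auxin receptors, 3 were called lower and none higher, AFB1 by 3.89-fold, TIR1 by 1.51-fold and AFB5 by 1.23-fold. Of 15 ARFs, 5 were called higher and 4 lower. ARF6, an activator of hypocotyl growth, fell 4.38-fold, and ARF8 and ARF11 rose 2.12-fold and 2.91-fold. Of 5 TOPLESS co-repressors only TPR2 was called, higher by 1.79-fold, while TPR4 and TPR1 had log2 differences of 0.19 and 0.14.

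Auxin-responsive output genes had the largest falls among the genes named from these lists. GH3.3, an enzyme that conjugates auxin to amino acids, went from 129 ± 52.8 to 1.55 ± 0.563 CPM (SD, n = 3; fitted fold 87.7, edgeR adjusted p = 3.2e-12), whereas GH3.5 and GH3.17 rose 1.89-fold and 1.77-fold. Of 5 GH3 genes tested, 2 were called lower and 2 higher. Of 7 SAUR growth genes tested, 4 were called lower and none higher. SAUR50 fell 26.0-fold and SAUR14 fell 10.5-fold. SAUR15, already low at 0.391 ± 0.222 CPM at 0 h (SD, n = 3), had no count at 2 h. Of 10 auxin transport genes, 7 were called lower and none higher, with PIN3 down 3.42-fold and LAX2 down 5.76-fold. Of 8 auxin synthesis genes tested, YUC5 alone was called, lower by 1.86-fold, while YUC2 and YUC8 had log2 differences of 1.32 and -0.65. Of 2 LBD genes, LBD18 was called lower, and LBD16 had a log2 difference of -1.02. Of 7 PIF genes and PIF markers tested, 2 were called lower and 2 higher. PIF7 fell 4.38-fold and PIF5 2.66-fold, and PIF1 rose 2.95-fold.

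Set against Col-0 at 24 h of NaCl, the libraries labelled agb1-2 had 7 of 15 other Aux/IAA genes called higher and 3 lower, where 16.2% of all genes were higher and 19.2% lower. Of the output and transport lists there, 4 of 7 SAUR genes and 5 of 10 transport genes were called higher and none lower, and of the ARFs none was called higher and 5 of 15 lower. In xlg1,2,3 the same lists gave 5 higher and none lower for the other Aux/IAA genes, 2 of 7 higher for the SAUR genes, 5 of 10 higher for transport and 2 of 15 lower for the ARFs, where 8.97% of all genes were higher and 10.5% lower.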

How the data were processed

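RNA-seq expected counts per gene, deposited by the authors in 1 table, covered 44 Arabidopsis libraries in 16 groups of genotype and treatment. STAR and the TAIR10 build are named per the submitters' processing notes. Their versions, the counting tool and the use of strand were not given in the sources used here. Of the deposited values, 1.35% were not whole, and all were rounded to whole numbers. In R 4.3.3, edgeR 4.0.16 kept genes by filterByExpr (minimum count 10, minimum total 15), leaving 20858, scaled libraries by TMM and fitted 1 quasi-likelihood model over the 16 groups with Benjamini-Hochberg adjustment over all genes tested (threshold 0.05). A run on simulated counts covered only Col-0 at 2 h of NaCl against 0 h, with changes placed in genes above a set level. Its outcome is not reported here, and it did not cover the interactions, the tunicamycin comparisons or changes in genes of low level. DESeq2 1.42.0 was an alternative. Levels are CPM on TMM-scaled library sizes, per kb of annotated exon where genes are compared. Library totals of 14135237 to 39011130 counts limit precision for genes under 1 CPM. Positions and sequences came from the TAIR10.1 genome and annotation, in which 32182 of the 32853 loci were found. The 10 genes and the other lists were chosen with earlier results of these data known. All 10 genes are named. From every other list up to 3 of smallest p in Col-0 at 2 h of NaCl are named (1 auxin transport gene that the rule picks is not reported here), and for each of the genes the most similar other gene by Pearson's r over group means. For the 10 genes, changes measured with 3 counts or fewer in a group are given as count ratios with exact intervals. Alternatives were other size factors, no filter, only the groups compared, a replicate block and leaving out each library.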

Additional observations from a re-analysis of the deposited data

Results flagged for a closer look

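A response that differed between a mutant and Col-0 by the edgeR interaction test (Benjamini-Hochberg adjusted p under 0.05) was found for 11 pairs of gene and treatment, all in the libraries labelled agb1-2 or in xlg1,2,3. The 8 genes were tested in 9 such comparisons. For the libraries labelled agb1-2, 6 of 8 were called at NaCl 24 h, where 23.6% of all genes were. At NaCl 2 h and under tunicamycin 1 of 8 was called there, near the 13.2% and 11.4% of all genes. In xlg1,2,3, 2 of 8 were called at NaCl 24 h (9.23% of all genes) and 1 of 8 under tunicamycin (5.71%). In each of the 11 pairs the mutant change was shifted upwards, that is, to less of a fall or to none. For NaCl 24 h in the libraries labelled agb1-2, the log2 differences were 1.09 for IAA3, 3.22 for IAA19, 1.14 for IAA2, 0.40 for IAA7, 2.32 for IAA1 and 3.55 for IAA29. IAA1, IAA2, IAA7 and IAA19 kept this call without any 1 of the 12 libraries compared. For NaCl 24 h in xlg1,2,3 they were 2.94 for IAA19 and 1.71 for IAA1. For NaCl 2 h in the libraries labelled agb1-2 the value was 1.24 for IAA3. For tunicamycin it was 1.20 for IAA3 in the libraries labelled agb1-2 and 1.53 for IAA3 in xlg1,2,3. The values of IAA19 and IAA29 at 24 h rest on 3 and 1 counts in Col-0. No group had the 4 libraries needed to test for a single outlying library.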

How the results depend on the processing

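No difference changed sign while called under the alternatives run. Values for single genes and comparisons were counted as kept where they stayed on their side of the threshold. Their direction also had to hold, unless the value was called in neither fit and moved by less than its SE in the main fit. By this rule 288 of 296 were kept under DESeq2, 294 of 296 under its size factors and 294 of 296 without the low-count filter. With only the compared groups fitted 263 of 283 were kept, and 1930 of 2080 when 1 library was left out. Counts of called genes that moved by over 1.5 times are given here, and the cause was not tested. With only the compared groups fitted, the count against Col-0 was 0 for gpa1-3 at NaCl 24 h, 0 for gpa1-3 and 1 for agb1-2 under tunicamycin and 3 for xlg1,2,3 at NaCl 24 h. In that fit, interactions numbered 2 for agb1-2 at NaCl 2 h, 0 for agb1-2 under tunicamycin, 1 for xlg1,2,3 at NaCl 24 h and 0 for xlg1,2,3 under tunicamycin. Under DESeq2, interactions at NaCl 2 h numbered 1 for gpa1-3 and 3 for agb1-2, and under DESeq2's size factors in edgeR 2 for agb1-2. When 1 library was left out, counts against Col-0 ranged from 2 to 4 for gpa1-3 at 0 h, 0 to 3 at NaCl 24 h and 0 to 4 under tunicamycin. They ranged from 1 to 3 for agb1-2 at 0 h and under tunicamycin, and for xlg1,2,3 from 1 to 4 at NaCl 2 h and 4 to 6 at NaCl 24 h. From NaCl 2 h to 24 h in xlg1,2,3 the range was 3 to 5. Interactions ranged from 0 to 1 for gpa1-3 at NaCl 2 h and under tunicamycin, 0 to 2 for agb1-2 at NaCl 2 h, 0 to 1 for agb1-2 under tunicamycin, and for xlg1,2,3 0 to 1 at NaCl 2 h, 0 to 3 at NaCl 24 h and 0 to 1 under tunicamycin. A tunicamycin group left with 1 library took its spread from the rest of the groups.

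Pairing by replicate number was not taken up, since it required every same-numbered pair to correlate above 0.1 and 138 of 306 did. Deviations of same-numbered libraries had a median correlation of 0.073 (from -0.42 to 0.53), against -0.026 for other numbers, and 28 of 44 libraries were closest to their own number, a hint of shared deviations from the data and not the design. With the replicate block, 294 of 296 values kept their call. The interaction count became 1 for gpa1-3 at NaCl 2 h (main 0) and 5 for agb1-2 at NaCl 24 h (main 6). Few counts limit IAA5 and, in Col-0 at NaCl 24 h, IAA19 and IAA29.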

Other observations

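IAA15 (AT1G80390), an Aux/IAA gene outside the 10 described and picked out after its values were seen, had counts almost only at 24 h of NaCl. In Col-0 its 3 libraries at 24 h held 44, 34 and 2 counts, and in xlg1,2,3 they held 0, 22 and 2. In gpa1-3 they held 2, 2 and 4 counts, and in the libraries labelled agb1-2 they held 2, 7 and 1. The 32 libraries at 0 h, at 2 h of NaCl or under tunicamycin held 5 counts in all, at most 1 each. The libraries of Col-0 and of xlg1,2,3 at 24 h differed widely among themselves, and the direction is the opposite of IAA1, IAA2, IAA3, IAA7, IAA17, IAA19 and IAA29 in Col-0.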
